A study of Mus musculus with 4 samples.

Results

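The 9 genes described here encode the enzymes of the methionine cycle and of the steps that lead into and out of it. They are Mat1a, Mat2a, Gnmt, Pemt, Ahcy, Bhmt, Mtr, Cbs and Cth, and all 9 were found among the 22367 protein-coding genes of the GENCODE M1 annotation. They were chosen by name for their place in the pathway, with earlier results of these data known. A peak of SHP (small heterodimer partner, NR0B2, a repressor of the nuclear receptor family without DNA-binding domain of its own) was assigned to a gene when its interval lay within 5 kb of the gene body. By this rule 3 of the 1508 peaks found with vehicle and 4 of the 3155 peaks found with FGF19 belonged to the 9 genes.

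In the methionine cycle, methionine is first joined to ATP to make S-adenosylmethionine, the methyl donor of most cellular methylation reactions. Methyltransferases hand the methyl group on and leave S-adenosylhomocysteine, which is split to homocysteine. Homocysteine is then either methylated back to methionine, with a methyl group from betaine or from folate, or passed through transsulfuration to cysteine. The liver carries most of this traffic, and several of the enzymes are among the abundant proteins of hepatocytes.

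ChIP-seq of SHP was made from livers of male C57BL/6 wild-type mice, 8 to 12 weeks old, that were fasted for 12 h and injected through the tail vein. One group received vehicle and the other FGF19 at 1 mg/kg, an intestinal hormone that acts on the liver after a meal, and the livers of both were collected 2 h later. Chromatin was precipitated with SHP antibody, and each group is a pool of 3 mice sequenced as 1 ChIP library with 1 input library of sheared chromatin saved before precipitation. No replicate error can be given for any value that follows, and no test was made of any difference between the groups. After the authors' filter the ChIP libraries held 15473647 tags with vehicle and 13444078 with FGF19, and their inputs 16164473 and 17367587. Peak lists do not measure expression, so the labelled tissue could not be checked by its transcripts. A peak lay within 5 kb of 4 of 5 hepatocyte marker genes in both lists, and of 0 of 13 markers of other liver cell types with vehicle and 1 of 13 with FGF19 (Sox9). Of all protein-coding genes 7.93% had a peak within 5 kb with vehicle, 16.3% with FGF19 and 4.31% in both lists. Beside these shares, the counts over 13 genes do not tell whether other cell types were present.

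The DNA under the member peaks is shown first, because all 7 summits lay inside exons. Each sequence is from mm9 and reads 5′ to 3′ on the strand of its gene. In the Gnmt sequences the capitals run from the summit of one list to the summit of the other. In the Mat2a and Mat1a sequences the capitals are the 11 bases centred on the summit.
Gnmt, coding part of the first exon, chr17:46865895-46866100, minus strand: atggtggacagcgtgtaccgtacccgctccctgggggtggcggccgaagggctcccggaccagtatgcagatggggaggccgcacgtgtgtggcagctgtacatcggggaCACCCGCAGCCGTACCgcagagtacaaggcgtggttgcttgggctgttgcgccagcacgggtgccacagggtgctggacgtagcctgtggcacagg
Gnmt, coding part of the last exon, chr17:46862752-46862920, minus strand: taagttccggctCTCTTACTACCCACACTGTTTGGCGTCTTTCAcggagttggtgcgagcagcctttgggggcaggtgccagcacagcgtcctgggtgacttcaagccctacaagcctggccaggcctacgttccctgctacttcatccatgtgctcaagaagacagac
Mat2a, coding part of the first exon and the start of the first intron, chr6:72389270-72389430, minus strand: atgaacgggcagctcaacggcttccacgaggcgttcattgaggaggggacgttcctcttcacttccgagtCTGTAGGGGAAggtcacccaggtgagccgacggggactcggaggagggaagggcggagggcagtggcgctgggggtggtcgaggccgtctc
Mat1a, last exon at the vehicle summit, chr14:41937054-41937083, plus strand: agcctccaaGCAATCGACAAgttgccaaga
Mat1a, last exon at the FGF19 summit, chr14:41936858-41936887, plus strand: agataggtgTGTGAGTTCTCtgggcatggg

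SHP peaks were found at 3 of the 9 genes. The other 6 had none in either list, as had 80.1% of all protein-coding genes. Mat1a and Gnmt had peaks in both lists, and Mat2a had a peak with FGF19 only. With vehicle 2 of the 9 genes had a peak (22.2%), against 7.93% of all protein-coding genes. With FGF19 3 of the 9 had one (33.3%), against 16.3% of all genes. Both lists marked the same 2 of 9, against 4.31% of all genes, and the 1 gene marked with FGF19 only compares with 12.0% of all genes. No gene of the 9 had a peak with vehicle only, against 3.62% of all. With so few genes, chosen with earlier results of these data known, these shares describe the 9 genes and nothing wider. The median length was 6760 bp for the 3 genes with a peak, 27703.5 bp for the 6 without and 15427 bp for all protein-coding genes, and the ranges overlapped, since Ahcy without a peak (15188 bp) is shorter than Mat1a with one (19032 bp).

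**Figure D1:**
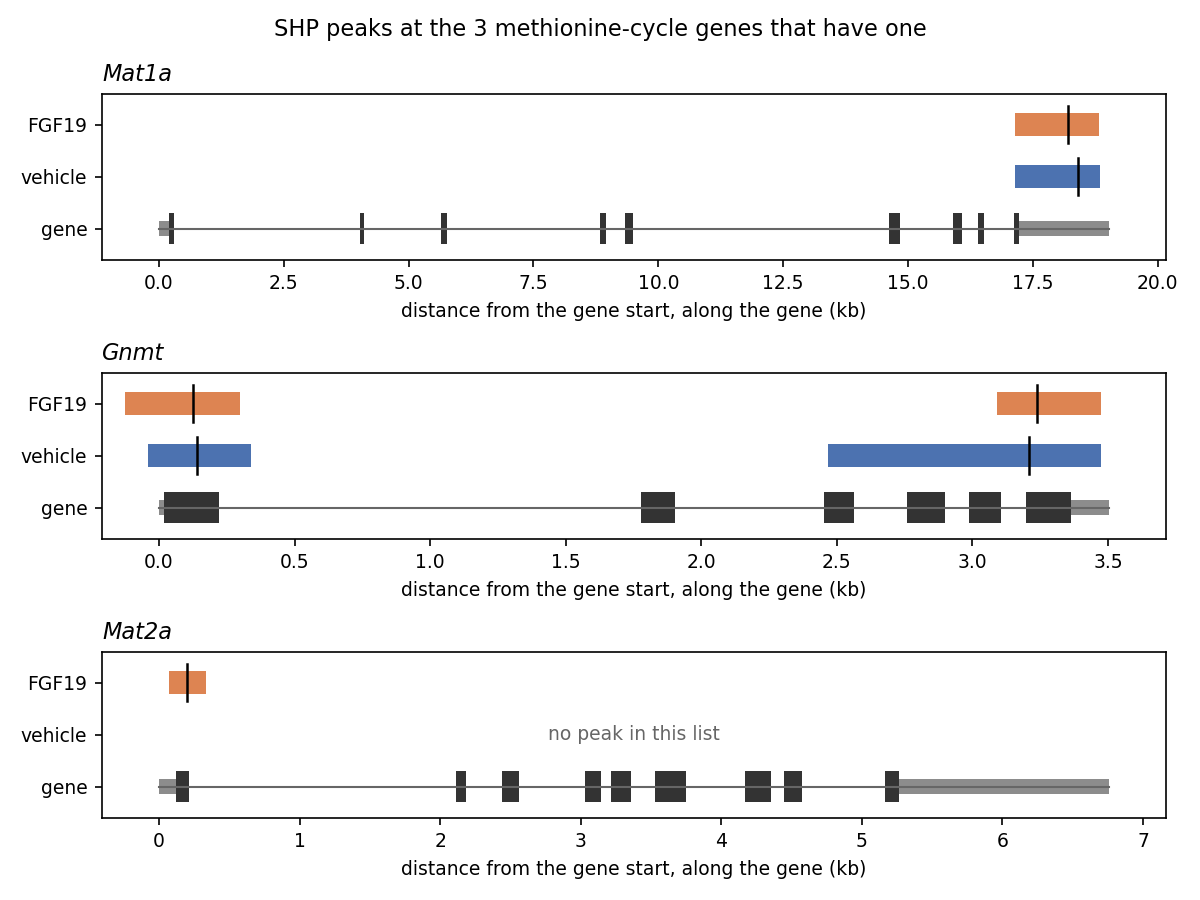
SHP peaks at Mat1a, Gnmt and Mat2a, drawn along each gene from its annotated start (x axis, kb). Coding exons are tall dark boxes and untranslated exon parts low grey boxes, the coloured bars are the peak intervals of the vehicle and FGF19 lists, and black ticks are summits. The Mat1a peaks fill the last exon, Gnmt has a peak at each end, and Mat2a has 1 peak at its start with FGF19.

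Mat1a encodes the methionine adenosyltransferase of adult liver, which makes S-adenosylmethionine. The gene (ENSMUSG00000037798.6) lies on the plus strand at chr14:41918670-41937701 and has 9 exons. Each list had 1 peak there, and neither was near the promoter. The vehicle peak ran over chr14:41935811-41937513 and the FGF19 peak over chr14:41935804-41937497. Both lay wholly within the last exon, of which they covered 89.2% and 88.7%, and both summits were in the 3′ untranslated region, 633 bp before the gene end with vehicle and 829 bp before it with FGF19. The summits were thus 196 bp apart inside peaks that shared 99.1% of the length of the vehicle peak and 99.6% of that of the FGF19 peak. At 1703 bp the vehicle peak was among the 3 longest of its list, and at 1694 bp the FGF19 peak was among the 5 longest. The nearest coding TSS of another gene, Sftpa1, was 8003 bp from the vehicle summit and 8199 bp from the FGF19 summit.

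The pileup, which is the number of extended ChIP tags over the summit, was 42 at Mat1a in the vehicle library (95% exact Poisson interval 30.3 to 56.8) and 33 in the FGF19 library (22.7 to 46.3). These intervals cover counting error only, and they overlap. The fold enrichment, which is the pileup over the local input background, stood at 10.3 in the vehicle list and 4.27 in the FGF19 list. By fold enrichment the vehicle peak was among the 42 strongest of 1508, with 97.2% of the list below it, while 59.4% of the FGF19 list lay below the FGF19 peak. The -log10 q-value was 27.3 with vehicle and 8.25 with FGF19.

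Gnmt encodes glycine N-methyltransferase, which uses S-adenosylmethionine to methylate glycine and so limits the methyl donor when methionine is plentiful. The gene (ENSMUSG00000002769.8) is short, 3505 bp on the minus strand at chr17:46862613-46866117, with 6 exons. It carried 2 peaks in each list, 1 over the first exon and 1 over the last. The peaks at the start ran over chr17:46865779-46866156 with vehicle and chr17:46865817-46866241 with FGF19, and both covered the whole first exon. Their summits lay inside the gene, 142 bp and 127 bp from its start, in coding sequence and only 15 bp apart. The peaks at the end ran over chr17:46862643-46863651 with vehicle and chr17:46862642-46863025 with FGF19. The vehicle peak reached across exons 3 to 6, whereas the FGF19 peak covered most of exon 6 and 13.1% of exon 5. These summits were 31 bp apart, again in coding sequence, 295 bp before the gene end with vehicle and 264 bp before it with FGF19. A noncoding transcript with a retained intron is annotated to start inside Gnmt, so the centres of the peaks at the end lay 603 bp and 917 bp from an annotated TSS.

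At the start of Gnmt the pileup was 33 for vehicle (22.7 to 46.3) and 25 for FGF19 (16.2 to 36.9). Fold enrichment stood at 5.82 and 2.97 in the same order. At the end of the gene the pileup was 37 for vehicle (26.1 to 51.0) and 38 for FGF19 (26.9 to 52.2). Fold enrichment there stood at 7.87 and 4.46. At the end of the gene the number of ChIP tags over the summit was thus all but the same in the libraries, while the fold enrichment with FGF19 was 0.567 times that with vehicle. Both peaks at the end stood higher in their list than the peaks at the start, with 93.9% and 66.5% of peaks of lower fold enrichment, against 85.7% and 8.91%.

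Mat2a encodes the methionine adenosyltransferase found in most tissues and in growing cells. The gene (ENSMUSG00000053907.8) lies on the minus strand at chr6:72382793-72389552. Its only peak, with FGF19, ran over chr6:72389219-72389478 and had its summit in the coding part of exon 1, 197 bp downstream of the gene start. The nearest coding TSS of another gene was that of Ggcx, 25053 bp from the summit. At 260 bp the peak had the shortest length in the list. Its pileup was 25 (16.2 to 36.9), just above the list median of 24, and its fold enrichment was 2.97, with 8.91% of the list below it. With vehicle the nearest peak was 279 kb from the gene. The -log10 p-value at Mat2a was 6.71, and the lowest in the 2 lists was 4.75 with vehicle and 4.37 with FGF19. The background at Mat2a is known for the FGF19 library only, at 7.74 tags. Among 116 vehicle peaks whose background was within 10% of that at Mat2a with FGF19, the lowest pileup was 21. The vehicle background at Mat2a is not known, so neither is the pileup that a peak would have needed there. The absence of Mat2a from the vehicle list thus does not show a pileup of 0. When the FGF19 list was shortened to 1508 peaks, by q-value or by fold enrichment, Mat2a was not in it, and the count of genes with a peak with FGF19 only went from 1 to 0.

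**Figure D2:**
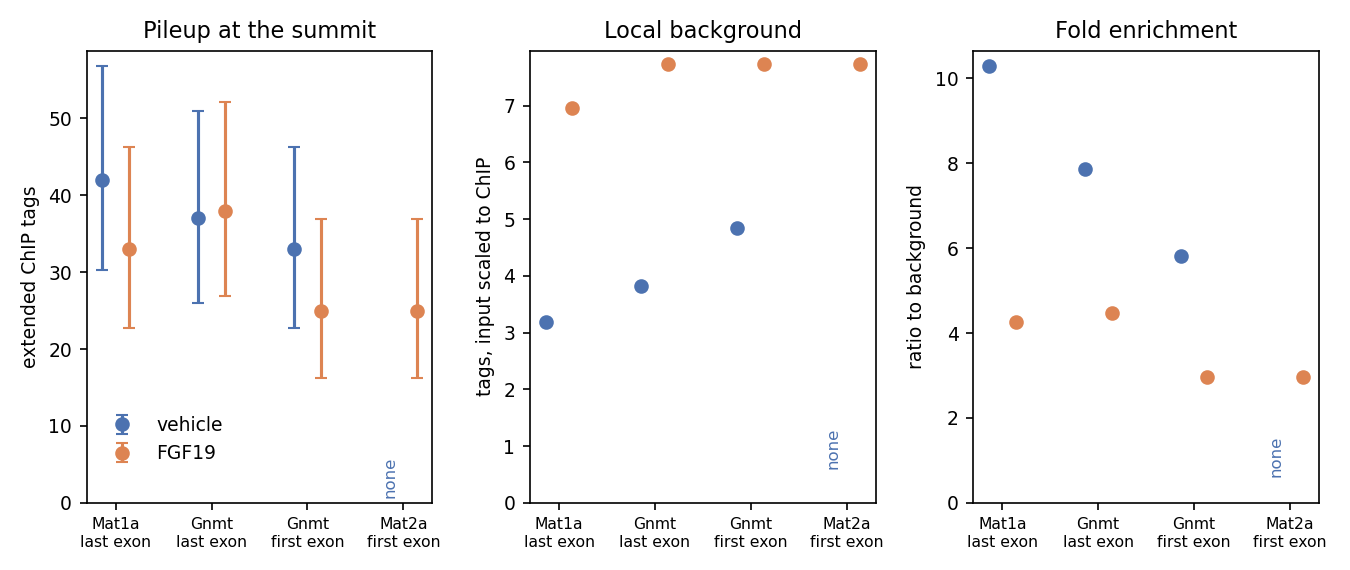
Pileup, local background and fold enrichment at the 4 member regions (y axes, linear from 0), with vehicle in blue and FGF19 in orange and 1 pooled library per point. Bars on the pileup are 95% exact Poisson intervals. The pileup intervals overlap between groups, while the background is higher and the fold enrichment lower with FGF19 at all 3 regions shared by the lists.

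The fold enrichments of the 3 shared regions were all lower with FGF19. The log2 ratio of FGF19 to vehicle was -1.27 at Mat1a, -0.97 at the start of Gnmt and -0.82 at its end. Over all 678 regions shared by the lists the median was -0.02, with quartiles of -0.36 and 0.32, and 51.5% of regions were lower with FGF19. Mat1a was among the 8 regions with the lowest ratio, the start of Gnmt among the lowest 27 and its end among the lowest 50.

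The tag counts alone moved less. Divided by the ChIP tags used, the pileup with FGF19 was 0.904 times that with vehicle at Mat1a (95% counting interval 0.555 to 1.46). It was 0.872 times at the start of Gnmt (0.497 to 1.51) and 1.18 times at its end (0.732 to 1.91). All 3 intervals include 1, and they compare these libraries and not the treatments. On this scale the log2 ratios were -0.15, -0.20 and 0.24, against a median of 0.20 over all shared regions.

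The background moved more. It was worked out from the pileup and the fold enrichment, and went from 3.18 tags with vehicle to 6.97 with FGF19 at Mat1a, a ratio of 2.19. It went from 4.84 to 7.74 at the start of Gnmt, a ratio of 1.60, and from 3.83 to 7.74 at its end, a ratio of 2.02. Divided by the ChIP tags used, the background had a log2 ratio of 1.33 at Mat1a, 0.88 at the start of Gnmt and 1.22 at its end, against a median of 0.22 over all shared regions with quartiles of -0.13 and 0.60. Of the 678 regions, 97.6% had a lower background ratio than Mat1a, 96.2% a lower one than the end of Gnmt and 84.8% a lower one than its start.

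These backgrounds are small numbers of input tags if they were taken over a window as long as the tag extension. The lists do not say which window of the peak caller set each value. On that reading the FGF19 values correspond to 9 input tags at Mat1a and 10 at each of the other member peaks, after the input was scaled by 0.774 to the ChIP library. The 95% exact Poisson interval is 4.12 to 17.1 for 9 tags and 4.80 to 18.4 for 10. At the end of Gnmt the vehicle background corresponds to 4 input tags (1.09 to 10.24), scaled by 0.957. The other vehicle backgrounds correspond to 3.32 tags at Mat1a and 5.05 at the start of Gnmt, which are not whole numbers, so no interval is given for them. They cannot be counts of tags over a window of that length. On that reading the background ratios at Mat1a and at the start of Gnmt set unlike windows side by side. The lower fold enrichment at Mat1a and Gnmt thus went with a higher background as the peak caller set it. The part of the background in the result beyond these values was not tested.

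**Figure D3:**
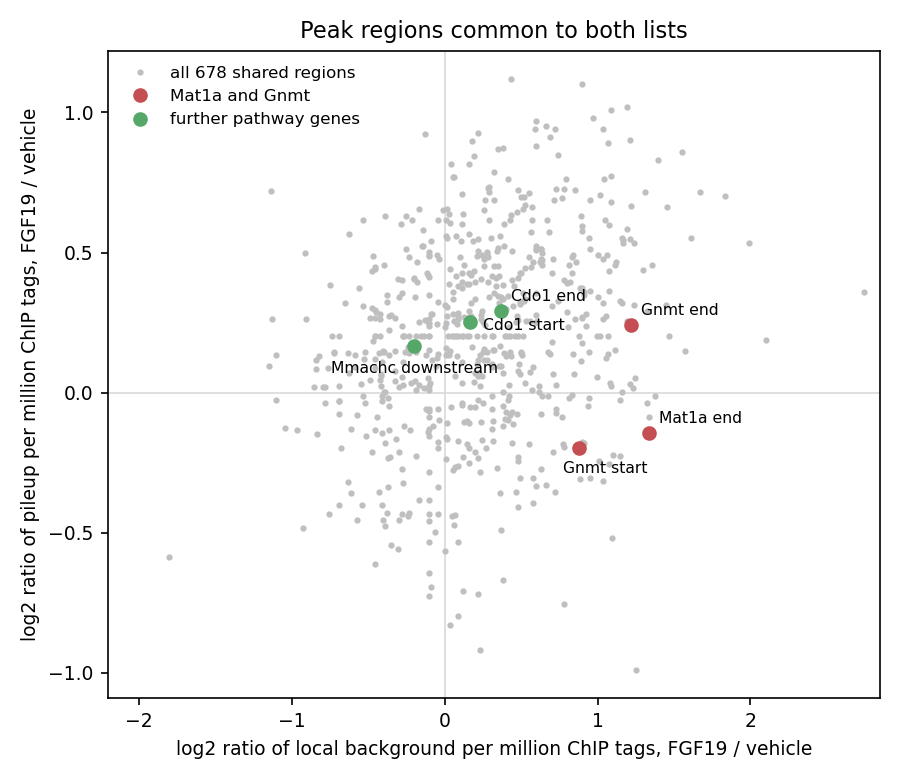
Log2 ratio of FGF19 to vehicle for the local background (x axis) and the pileup (y axis), both divided by the ChIP tags used, at the 678 regions common to both lists. The regions of Mat1a and Gnmt, in red, lie to the right, with background ratios of 0.88 to 1.33, while the named regions of further pathway genes, in green, lie between -0.20 and 0.37.

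A summit in the last exon of a coding transcript and more than 1 kb from every coding TSS was found for 178 of 1508 vehicle peaks (11.8%) and 199 of 3148 FGF19 peaks on the nuclear chromosomes (6.32%). This class was defined after the values of Mat1a and Gnmt were seen. It was shared between the lists more often than the promoter class, at 69.1% of such vehicle peaks and 62.3% of such FGF19 peaks, against 42.7% and 18.4% of promoter peaks. Its peaks were also stronger, at a median fold of 5.22 and 4.87 over background, against 3.97 in both lists for promoter peaks. Neither trait was particular to last exons. Peaks in other exons away from coding TSSs were shared at 62.1% with vehicle and 54.1% with FGF19. Their median fold was 5.77 and 5.14. Of the 9 genes, Mat1a and Gnmt had a last-exon peak in both lists. Among the 22367 protein-coding genes, 121 had one in both lists. As the class was defined after Mat1a and Gnmt were seen, these counts do not test the 9 genes. A promoter peak together with a last-exon peak was found at 29 genes with vehicle and 47 with FGF19. In both lists it was found at 22 genes, and Gnmt was one of them.

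At the 120 shared regions of the last-exon class the median log2 ratio of fold enrichment was -0.04 and that of the background, scaled by tags used, was 0.14. Mat1a and the end of Gnmt lay below the one median and above the other.

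The other 6 genes had 0 peaks of either list within 5 kb. Pemt encodes the methyltransferase that makes phosphatidylcholine from phosphatidylethanolamine, and lies at chr11:59784116-59859991. Its nearest peak with FGF19 was 22.0 kb away, 208 bp from a TSS of Med9, and its nearest with vehicle was 885 kb away. Ahcy, at chr2:154885046-154900233, encodes the hydrolase that splits S-adenosylhomocysteine, and its nearest peaks were 445 kb away with vehicle and 268 kb away with FGF19.

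Remethylation of homocysteine is the work of Bhmt, which uses betaine, and of Mtr, the methionine synthase that uses methyl-folate and cobalamin. Bhmt lies at chr13:94386846-94407916 and had its nearest peak at 3324 kb with vehicle and 118 kb with FGF19. Mtr lies at chr13:12279086-12350267, with its nearest peaks at 1696 kb and 1332 kb. Transsulfuration begins with Cbs and ends with Cth. Cbs, at chr17:31749568-31774144, was 109.7 kb from the nearest vehicle peak and 47.2 kb from the nearest FGF19 peak. Cth, at chr3:157557212-157588041, was 3949.7 kb from the nearest vehicle peak and 111 kb from the nearest FGF19 peak.

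Over 22350 protein-coding genes on chromosomes with a peak, the median distance to the nearest peak was 354 kb with vehicle (quartiles 85.5 and 1201) and 136 kb with FGF19 (25.03 and 499). The 6 genes were nearer to an FGF19 peak than to a vehicle peak in every case, in a list with more peaks. Just inside the 5 kb limit no member peak was found, since all 7 overlapped their gene body. For the 6 genes without a peak, the nearest outside the limit was the FGF19 peak at 22.0 kb from Pemt. What the libraries held under the q-value limit of 0.05 is outside the lists and was not examined.

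**Figure D4:**
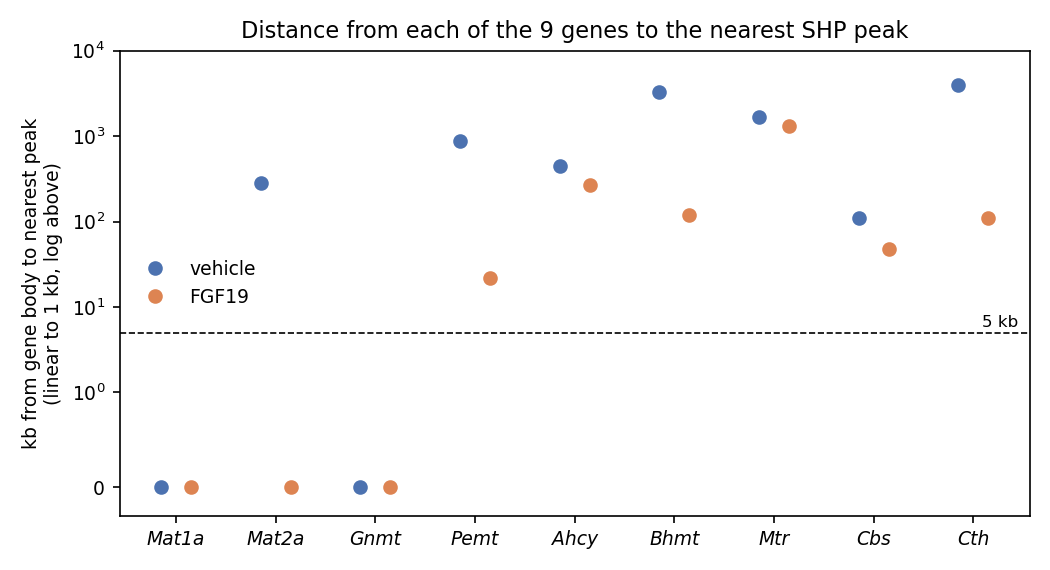
Distance in kb from the body of each of the 9 genes to the nearest SHP peak of the vehicle and FGF19 lists (y axis linear to 1 kb and logarithmic above, dashed line at 5 kb). Mat1a and Gnmt are at 0 in both lists and Mat2a at 0 with FGF19, and the other 6 genes lie between 22.0 and 3949.7 kb.

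Short consensus sequences were searched on both strands within 100 bp of each member summit, and in the same summit windows of all peaks. At Mat2a the letters AGGTCA, the core that most nuclear receptors bind, begin 5 bp downstream of the summit and lie near the end of the printed exon. AGGTCA occurred in 7.15% of FGF19 summit windows and 9.08% of vehicle summit windows. Of windows of the same length centred on the starts of all protein-coding genes (promoters), 8.90% held it. The GC box GGGCGG begins 45 bp downstream of the Mat2a summit, in the printed intron. It occurred in 57.1% of FGF19 summit windows and 40.0% of promoters. The YY1 core ATGGCG was found on the opposite strand across the start codon. It occurred in 15.3% of FGF19 summit windows and 10.6% of promoters.

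At the start of Gnmt both windows held the E-box CACGTG at the same place, 99 bp downstream of the gene start and in the printed first exon. Its share was 6.37% among vehicle summit windows, 6.42% among FGF19 summit windows and 5.57% among promoters. The letters ATTGG of the CCAAT box were in 0 of 7 member windows. They were in 23.5% of windows in the vehicle list, 21.7% in the FGF19 list and 27.4% of promoters. The 7 windows are not separate places, since at each end of Gnmt the windows of the lists overlap. Over whole peaks, ATTGG was in 2 of 3 member peaks with vehicle and 2 of 4 with FGF19. The shares over all whole peaks were 36.5% and 34.2%. None of the 5 sequences was found within 100 bp of the Mat1a summits or of the summits at the end of Gnmt, which says only that these letters are not in those windows. The windows at Mat1a were also poorer in G and C, at 49.8% with vehicle and 51.2% with FGF19, against list medians of 63.7% and 68.2%. The windows at Mat2a and at the start of Gnmt held between 67.7% and 68.7%.

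A list of 59 further genes of the pathway, all found in the annotation, was set beside the 9. It too was chosen with earlier results of these data known, so its shares are description only. With vehicle 9 of the 59 had a peak within 5 kb (15.3%, against 7.93% of all genes), and with FGF19 15 did (25.4%, against 16.3%). Only part of these peaks lay near a TSS of the listed gene itself. With the peak centre within 1 kb of one of the gene's own TSSs there were 5 with vehicle (8.47%, against 5.53% of all genes). With FGF19 there were 12 (20.3%, against 12.4%). This rule does not set apart the promoters of close neighbours. The FGF19 peaks counted for Enoph1 and Mpst were nearer to a TSS of Hnrpdl and of Tst. With vehicle the fold enrichments ran from 2.22 to 6.41 and with FGF19 from 3.05 to 6.34.

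Close to the methionine cycle, Ahcyl1 and Ahcyl2, which are relatives of Ahcy, had promoter peaks with FGF19 only, with fold enrichments of 4.64 and 3.69. The vehicle peak within 5 kb of Gamt, which makes creatine with S-adenosylmethionine, was at the start of Dazap1. Mat2b, Bhmt2, Mtrr and Nnmt had no peak.

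Of 20 folate enzymes and carriers 0 had a peak with vehicle, against 7.93% of all genes, and 4 (20%) had one with FGF19, near the 16.3% of all genes. At Atic and Mtfmt, which use formyl-folate in purine synthesis and in mitochondrial translation, the fold enrichment was 4.23 and 4.43. Aldh1l1, which oxidises formyl-folate, had 1 peak in its last exon, at 4.36, and 1 at the start of its neighbour Slc41a3.

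Of 5 genes of choline and betaine oxidation, Aldh7a1 had peaks with FGF19 at its promoter (3.05) and near the start of Phax. Sardh had a vehicle peak in its last exon (5.35). The Sardh peak had a pileup of only 15, on the lowest background of the vehicle list, 1.99 tags. Its centre was 123 bp from an annotated TSS of Gm17071. The peaks near 2 of the 4 genes of glycine cleavage lay at other genes' starts, at Rhoa for Amt and at 1700030J22Rik for Gcsh. Among 9 genes of methionine salvage and polyamine synthesis, Odc1, the first enzyme of polyamine synthesis, had a peak in each list. These did not overlap, the vehicle summit being 314 bp upstream of the gene and the FGF19 summit 52 bp inside it, and the pileup was 19 and 37. Amd1 had a promoter peak with vehicle only (5.05) and Srm with FGF19 only (4.21), and the peak near Enoph1 was 24 bp from the coding TSS of Hnrpdl.

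Cdo1, which oxidises cysteine as the next step after transsulfuration, had the same layout as Gnmt, with a peak in the first and in the last exon in both lists. Fold enrichment stood at 6.01 and 6.34 for vehicle and FGF19 at its start, and at 6.41 and 6.20 at its end. In contrast to Gnmt its backgrounds were alike in the lists, 3.83 and 3.73 at the start and 4.15 and 4.64 at the end. The other peak in the sulfur list, near Mpst, was 47 bp from the coding TSS of Tst. Of 6 genes of cobalamin handling, Mmadhc had a promoter peak with vehicle only (3.58), and Mmachc had a peak of both lists beyond its end.

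**Figure D5:**
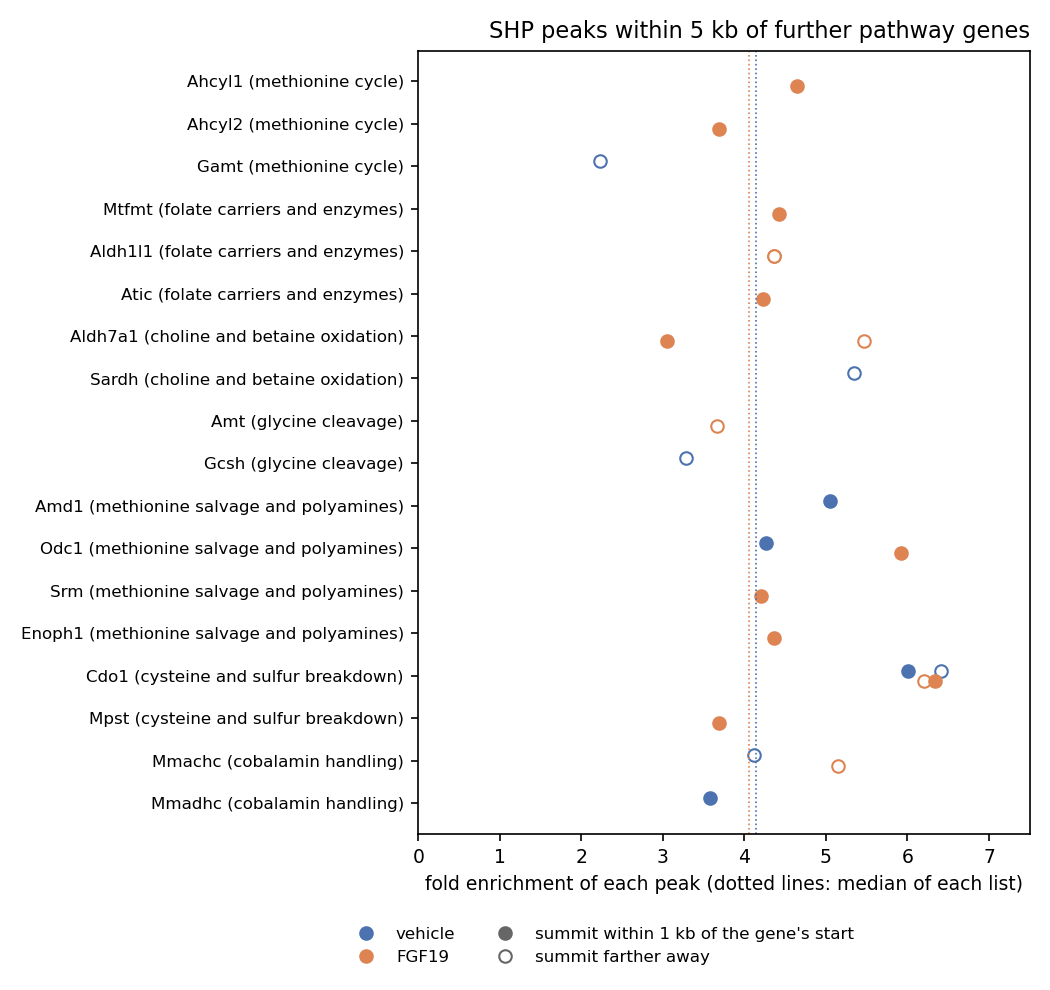
Fold enrichment (x axis) of the SHP peaks within 5 kb of the further pathway genes named in the axis labels, with vehicle in blue and FGF19 in orange. Filled points have their summit within 1 kb of the gene's own start, and dotted lines mark the list medians of 4.14 and 4.05. Of these, Cdo1 has the 4 strongest values, between 6.01 and 6.41.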

How the data were processed

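SHP ChIP and input libraries, 1 of each per group, were grouped by the labels, each from a pool of 3 mice. Tool versions are from the submitters' processing notes. The authors aligned reads to mm9 with Bowtie 1.0.0 (up to 2 mismatches) and called peaks against each input with MACS 2.0.10.20130501 (q-value cutoff 0.05, keeping 1 tag for each position and strand). The deposited pileup is a signal, in extended ChIP tags at the summit (240 bp with vehicle, 260 bp with FGF19). The deposited fold enrichment is a ratio with a pseudocount of 1 tag, and the -log10 p-values and -log10 q-values were deposited unchanged from MACS. The larger library of each pair, the input in both groups, was scaled down.

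The background was worked out as (pileup + 1) / fold enrichment - 1, and with it Poisson probabilities were within 0.1 of the deposited -log10 p-values for 100% of peaks in both lists. Gene bodies, exons and TSSs came from GENCODE M1, of the same build. Peaks sharing at least 1 bp formed a common region, in which the peak of highest fold enrichment from each list was compared. Every peak within 5 kb of the 9 genes was named, with the genes of the pathway list that had one, apart from some that enter the counts but are not reported here. The genes and lists were chosen with earlier results of these data known. Interval functions gave the planted answer in 9 of 9 checks on simulated data. Depth limits precision to the Poisson intervals given. The last-exon class was added after seeing the data. Alternatives covered distance, assignment, cutoff, list length, overlap, measure and motif window. Values were computed in Python 3.11.15 with scipy 1.17.1, pandas 2.3.3 and numpy 2.4.6.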

Additional observations from a re-analysis of the deposited data

How the results depend on the processing

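No paired analysis was possible because each group is 1 pooled library, and no library could be left out. Mat1a and Gnmt kept their peaks in both lists at 0, 1 and 10 kb from the gene body, at q-value cutoffs of 0.01 and 0.001 and with the FGF19 list shortened. With assignment to the nearest TSS, without exon peaks over 1 kb from every TSS, or with own promoters only, the genes with a vehicle peak and those with a peak in both lists each went from 2 to 1, since Mat1a has no promoter peak. With the FGF19 list shortened by q-value, or by fold enrichment (added after seeing the data), the genes with an FGF19 peak only went from 1 to 0. The further pathway genes with a vehicle peak went from 9 to 5 with overlap of the gene body or own promoters only. The median log2 ratio over the 3 shared member regions was -0.97 by fold enrichment and -0.15 by pileup scaled by tags used. At the end of Gnmt the direction turned, to 0.24 by scaled pileup, 0.0385 unscaled, 0.0703 after subtracting the background and 0.13 per base of extension as well (added). The background scaled by ChIP tags used, also added, had log2 ratios of 1.33, 1.22 and 0.88 with a median of 1.22. The background is the divisor of the fold enrichment. Pairs of member peak and motif with a match went from 5 to 11 over whole peaks, which are longer than the windows. If the windows were as long as the tag extension, 9 or 10 input tags lie behind an FGF19 background, and the depth of the input limits the fold enrichments.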

Other observations

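A peak 2823 bp beyond the end of Mmachc, which processes cobalamin for methionine synthase, was in both lists. Its centre was 8971 bp and 8970 bp from the nearest annotated TSS. In both lists it lay wholly within annotated exons, and the shared region is of the last-exon class. As the peak is outside Mmachc, that last exon belongs to another coding gene, which was not identified. The summits of the peak were 16 bp apart, and its pileup was 41 with vehicle and 40 with FGF19. Its fold enrichment was 4.11 and 5.15 on backgrounds of 9.22 and 6.97.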
